A study of Arabidopsis thaliana with 12 samples.

Results

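Expression of 37 detoxification genes was followed in Arabidopsis thaliana roots: 24 cytochrome P450s, 11 tau-class and 2 phi-class glutathione transferases (GSTs), out of 16550 genes measured. The genes were taken by symbol, as every array row annotated to a single gene whose symbol has the P450 form (CYP, a family number, a subfamily letter and a member number) or is GSTU or GSTF with a number. None of them had more than 1 row. RefSeq (assembly TAIR10.1) lists 225 P450, 27 GSTU and 12 GSTF symbols of this form, of which 24, 11 and 2 were measured here. Throughout, a gene counts as measured only if a row was annotated to it alone. Of 38408 rows 20927 were unnamed, so a gene not counted as measured may still be on the array. Of the 24 P450s, 20 belong to the CYP71B subfamily, and the other 4 are CYP78A9, CYP79A2, CYP79C2 and CYP84A4.

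All plants carried 35S::LBD16:GR in an arf7-2 arf19-5 background, a fusion of the lateral root regulator LBD16 to the glucocorticoid receptor, driven throughout the plant by the 35S promoter in a mutant of the auxin response factors ARF7 and ARF19. Treatment of 5-day-old seedlings lasted 4 hours and was with 2 µM dexamethasone (DEX), with 10 µM cycloheximide (CHX), with both at these doses (DEX+CHX), or with mock solution. DEX lets the fusion enter the nucleus, and CHX blocks protein synthesis on cytosolic ribosomes. Each treatment had 3 arrays, numbered as replicates, of total RNA from roots. No array came from roots without the fusion, so an effect of DEX or CHX without it is not measured here. In bulk root RNA, fewer cells of a type and less RNA per cell cannot be told apart.

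Cytochrome P450s are haem enzymes that insert oxygen into their substrates with electrons passed on from a reductase, and in plants they build and break down hormones, phenylpropanoids, glucosinolates and other defence compounds. Tau and phi GSTs are plant classes that join glutathione to reactive compounds, herbicides among them, which marks the product for transport into the vacuole. Many GST genes respond quickly to herbicides, oxidised lipids and other stresses. CYP71B is a large P450 subfamily whose members often lie beside each other in the genome, and most of them have no assigned substrate.

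Across genes, r was 0.992 to 0.994 within a treatment and 0.873 to 0.885 between an array with CHX and one without. Array medians over all rows were 5.62 to 5.68 with CHX and 6.07 to 6.14 without it, and over the genes tested 5.98 to 6.03 with CHX and 5.88 to 5.92 without. LBD16 read 9.33 with DEX, 9.60 with CHX, 9.52 with DEX+CHX and 9.49 with mock on the log2 scale. Of 8 listed root markers 1 was measured, the root hair expansin EXPA7, at 7.42 to 8.67 over the 12 arrays. Of 8 listed shoot markers 2 were measured, RCA at 6.24 to 6.83 with CHX present and 6.94 to 7.75 without it, and PORB at 5.15 to 6.03 with CHX present and 3.96 to 5.14 without. With CHX against mock and with DEX+CHX against DEX, EXPA7 fell by 0.40 (adjusted p = 0.00538) and by 1.07 (2.48e-06) and RCA fell by 0.87 (0.00122) and by 0.46 (0.0466), while PORB stood at 0.60 (0.0636) and rose by 1.23 (0.00113). The part of these markers in the results below was not tested. All levels are log2 values as deposited, and a probe's brightness depends on its sequence, so levels are compared between treatments and not between genes. Of the 37 genes, 19 lay among the dimmest 30% of all genes by mean signal. GSTU26, GSTU22, GSTU25, CYP71B6 and GSTF4 had the brightest probes, with means over the 12 arrays of 10.99, 10.10, 9.05, 8.41 and 7.85. CYP71B22, CYP71B31 and CYP71B24 had the dimmest, at 2.63, 1.94 and 1.55.

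CHX changed most of the GSTs, in both directions. Against mock, 5 of the 13 GSTs rose, 6 fell and 2 were not called (limma, adjusted p below 0.05 over all genes). That is 84.6% of the GSTs, beside 54.9% of all genes, of which 24.2% were higher and 30.7% lower. The median size of the log2 change was 1.20 over the 13 GSTs, against 0.43 over all genes tested. No test of the GSTs as a list was made, and these figures describe the measured genes.

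Both phi GSTs rose. GSTF3, a close relative of GSTF2, read 6.39, 6.75 and 6.82 with CHX, against 3.79, 3.10 and 3.67 with mock. It read 6.39, 6.54 and 6.27 with DEX+CHX, against 3.36, 3.20 and 3.27 with DEX. Every array with CHX lay far above every array without it. The rise was 8.75-fold over mock (log2 change 3.13, SE 0.17, adjusted p = 1.79e-08, with 3 arrays in each group), the 526th highest of 16550 genes, and 8.71-fold over DEX (adjusted p = 1.89e-08). GSTF4 rose less, by 0.97 ± 0.14 over mock (adjusted p = 9.76e-05) and by 1.06 over DEX (adjusted p = 4.52e-05). Its arrays with CHX or DEX+CHX read 8.06 to 8.53, and those without CHX 7.13 to 7.51, with no overlap.

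Among the tau GSTs, GSTU25 and GSTU22 rose strongly. GSTU25, known for acting on the explosive trinitrotoluene, read 10.38, 10.56 and 10.56 with CHX, against 7.96, 7.48 and 7.62 with mock. With DEX+CHX it read 10.38, 10.56 and 10.45, against 7.63, 7.32 and 7.69 with DEX. The groups with and without CHX did not overlap, and the rise was 7.01-fold over mock (2.81 ± 0.14, adjusted p = 6.44e-09) and 7.54-fold over DEX (adjusted p = 4.65e-09). GSTU22 read 11.30, 11.47 and 11.58 with CHX, against 9.07, 8.53 and 8.81 with mock. It read 11.37, 11.32 and 11.35 with DEX+CHX, against 8.97, 8.35 and 9.04 with DEX. It rose 6.26-fold over mock (2.64 ± 0.18, adjusted p = 1.24e-07) and 5.90-fold over DEX (adjusted p = 1.63e-07), again with no overlap. The third tau gene called higher, GSTU15, stood at 0.44 over mock (adjusted p = 0.0287) and was dim, at 3.56 to 4.38 over all arrays. Its call ended without mock replicate 1, mock replicate 3, CHX replicate 2 or CHX replicate 3 (adjusted p from 0.0586 to 0.122), and over DEX it was not called (0.27, adjusted p = 0.167), although it was without DEX+CHX replicate 2 (0.44, adjusted p = 0.0228).

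A further 6 tau GSTs fell with CHX. GSTU18 fell furthest: it read 3.45, 3.29 and 2.70 with CHX, against 5.79, 5.43 and 5.62 with mock. With DEX+CHX it read 3.39, 3.46 and 3.24, against 5.59, 5.75 and 5.15 with DEX. It fell by 2.47 on the log2 scale against mock (SE 0.20, adjusted p = 5.27e-07), the 148th lowest of 16550 genes, and by 2.13 against DEX (adjusted p = 1.9e-06). The groups were more than 1 log2 unit apart at their nearest arrays.

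GSTU20, also known as FIP1 and as a partner of the jasmonate-conjugating enzyme JAR1, read 6.35, 5.89 and 5.80 with CHX, against 7.67, 7.88 and 7.37 with mock. With DEX+CHX it read 6.49, 5.82 and 5.74, against 7.91, 7.88 and 7.48 with DEX. It fell by 1.63 (SE 0.22, adjusted p = 4.84e-05) and by 1.74 (adjusted p = 2.82e-05). GSTU23 read 4.21, 4.65 and 4.13 with CHX and 5.70, 5.96 and 5.96 with mock, and fell by 1.54 against mock (SE 0.17, adjusted p = 7.29e-06) and by 1.35 with DEX+CHX against DEX (adjusted p = 2.28e-05). GSTU28 read 6.42, 6.19 and 6.41 with CHX and 7.56, 7.33 and 7.74 with mock, and fell by 1.20 (SE 0.19, adjusted p = 0.000152) and by 1.42 (adjusted p = 3.82e-05). For these 3 genes too, no array with CHX reached the lowest array without it.

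GSTU16 fell by 0.76 against mock (SE 0.15, adjusted p = 0.00107) and by 0.98 with DEX+CHX against DEX (adjusted p = 0.000147), and GSTU26 fell by 0.65 (SE 0.14, adjusted p = 0.00185) and by 0.48 (adjusted p = 0.0124). Without DEX replicate 2 the second call of GSTU26 was lost (adjusted p = 0.0575). GSTU27 read 7.62 to 7.77 with CHX and 7.67 to 7.98 with mock, a difference of -0.16 (adjusted p = 0.221) that was called without mock replicate 2 (-0.26, adjusted p = 0.0487), and fell by 0.40 with DEX+CHX against DEX (adjusted p = 0.00565). GSTU21 was dim and variable, at 2.23 to 3.69, and was called in neither comparison.

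**Figure D1:**
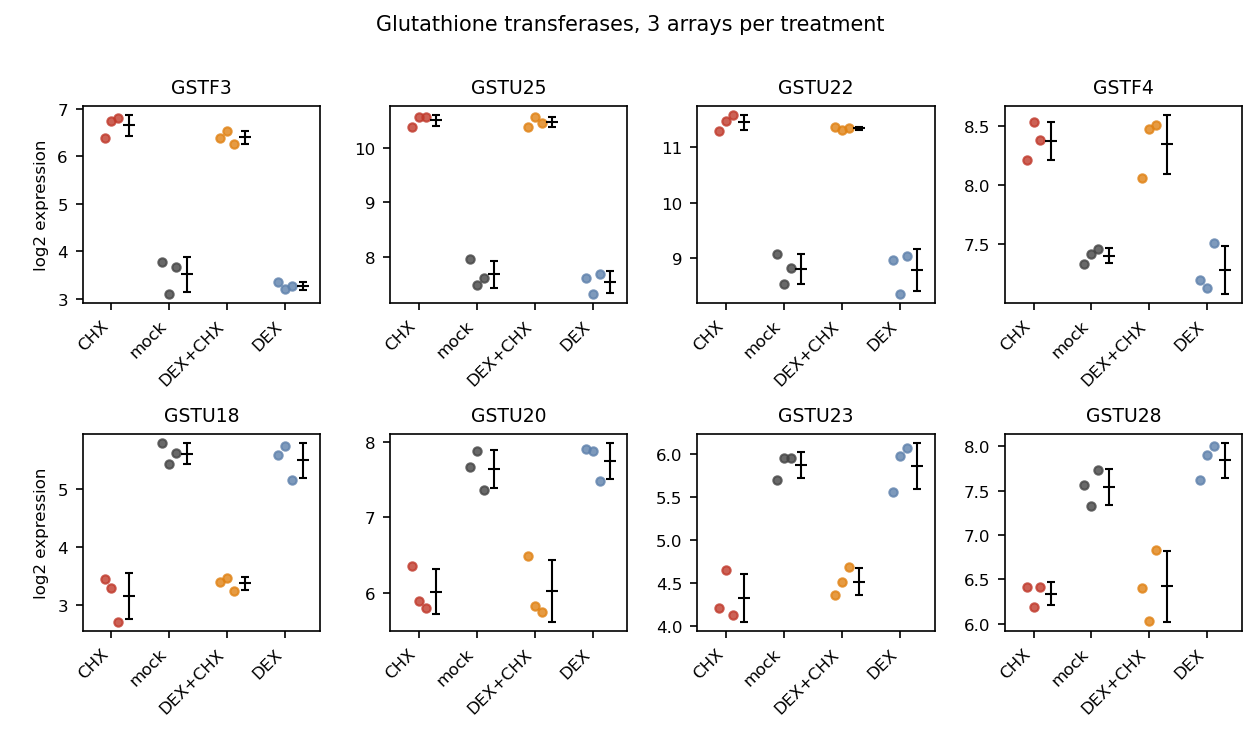
Log2 expression (vertical axis, a range of its own in each panel) of 8 GST genes on each array, by treatment (horizontal axis: CHX, mock, DEX+CHX, DEX), with the mean and SD of 3 arrays beside the points. In the upper row GSTF3, GSTU25, GSTU22 and GSTF4 are higher on every array with CHX, and in the lower row GSTU18, GSTU20, GSTU23 and GSTU28 are lower on every array with CHX.

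Some genes that lie next to each other changed in opposite directions, while others changed alike or were not called. Such pairs were not counted over all genes. In the RefSeq gene order of TAIR10.1, GSTU23, GSTU22, GSTU21 and GSTU20 are consecutive protein-coding genes. Of these, GSTU22 rose with CHX by 2.64 against mock, GSTU23 on one side of it fell by 1.54, GSTU21 on the other stood at -0.04 (adjusted p = 0.926), and GSTU20 beyond it fell by 1.63. GSTU25 rose by 2.81 while GSTU26, the next gene, fell by 0.65. That call of GSTU26 was lost with arrays centred on the median of all rows (-0.21, adjusted p = 0.212). GSTU15 (0.44) and GSTU16 (-0.76), with 3 genes between them, were also called in opposite directions, and the call of GSTU15 rested on single arrays, as given above. Close relatives can share stretches of sequence with a probe, and how far these rows read a neighbour's transcript was not tested.

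The CYP71B genes formed the longest group, of 13 members with at most 4 other protein-coding genes between neighbours. Of the 13, 3 rose against mock (CYP71B16, CYP71B22 and CYP71B23), 4 fell (CYP71B24, CYP71B26, CYP71B34 and CYP71B37) and 6 were not called, with 24.2% of all genes higher and 30.7% lower as background. The calls of CYP71B16, CYP71B22, CYP71B24 and CYP71B37 were lost when single arrays were left out, as given with their values below. CYP71B26, at -2.29, stands next to CYP71B34, at -0.96, and CYP71B35 beyond it stood at 0.43 (adjusted p = 0.125).

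**Figure D2:**
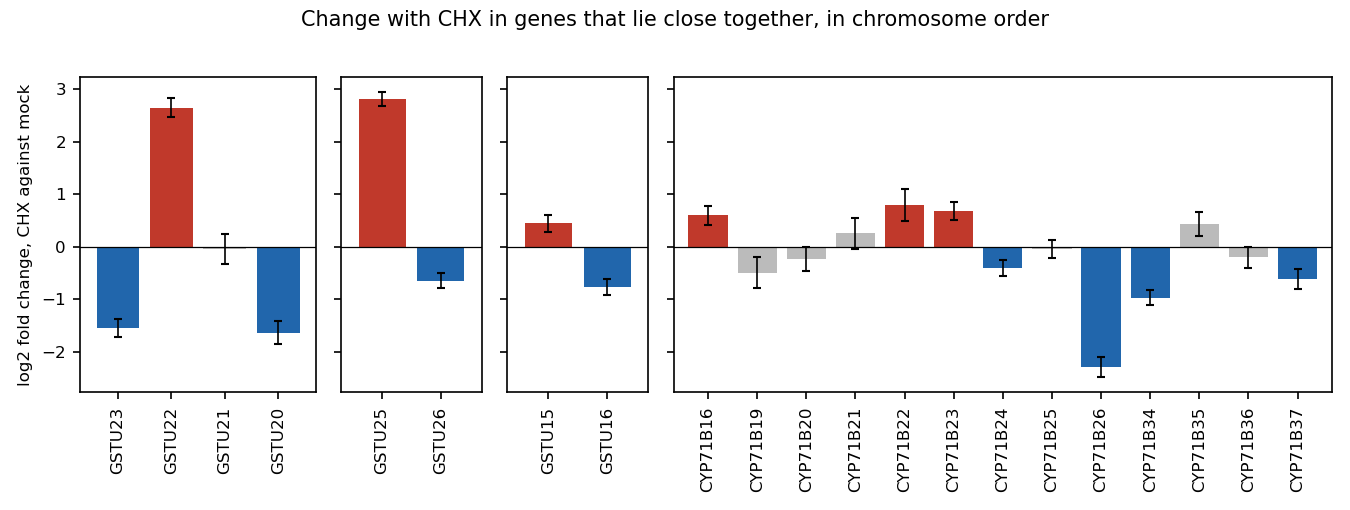
Log2 fold change of CHX against mock (vertical axis) with its standard error, for 4 groups of genes that lie close together, drawn in chromosome order (horizontal axis). Red bars were called higher, blue bars lower and grey bars were not called; GSTU22 (2.64) stands between GSTU23 (-1.54) and GSTU21 (-0.04), and CYP71B26 (-2.29) has the lowest value among the CYP71B genes.

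Among the P450s called with CHX against mock, CYP71B26, CYP84A4 and CYP71B34 had the largest changes. With DEX+CHX against DEX, CYP71B26, CYP84A4 and CYP71B5 did, and CYP71B34 was not called. Against mock, 6 of 24 rose, 5 fell and 13 were not called, which is 45.8% beside 54.9% of all genes. The median size of their log2 change was 0.47, beside 0.43 over all genes tested, and the difference between the P450s and the GSTs was not tested. Of the 24 P450s 16 lay among the dimmest 30% of genes, against 3 of the 13 GSTs. Calls were made for 6 of these 16 P450s, against 5 of the 8 brighter ones. The share of all genes called was not split by brightness, so these counts have no background of their own. Low values have no stated floor here, so a missing call on a dim gene does not show a lack of response.

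CYP71B26 had the largest change among the P450s. It read 1.57, 2.06 and 1.71 with CHX, against 4.13, 4.40 and 3.67 with mock. It read 2.39, 1.96 and 2.06 with DEX+CHX, against 4.58, 4.48 and 4.28 with DEX. It fell by 2.29 against mock (SE 0.19, adjusted p = 7.1e-07), the 200th lowest of 16550 genes, and by 2.31 against DEX (adjusted p = 6.45e-07), with a gap of over 1 log2 unit between arrays with and without CHX. 

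CYP84A4, a relative of ferulate 5-hydroxylase that acts in the formation of the phenylalanine-derived arabidopyrones, rose. It read 7.66, 7.40 and 7.80 with CHX, against 6.08, 6.54 and 6.19 with mock, and 7.79, 7.37 and 8.13 with DEX+CHX, against 6.18, 6.0 and 6.12 with DEX. The rise was 2.55-fold (1.35 ± 0.18, adjusted p = 5e-05) and 3.17-fold (1.67 ± 0.18, adjusted p = 8.41e-06), and no arrays overlapped. CYP71B6, which converts indole-3-acetonitrile in indolic defence metabolism, rose by 0.45 ± 0.12 over mock (adjusted p = 0.00601) and by 0.51 over DEX (adjusted p = 0.00247). Its arrays read 8.54 to 8.96 with CHX and 8.21 to 8.34 with mock. CYP71B23 rose by 0.68 ± 0.18 (adjusted p = 0.00567) and by 0.56 (adjusted p = 0.0164), the second call being lost without DEX replicate 1, DEX replicate 3 or DEX+CHX replicate 1 (adjusted p from 0.0546 to 0.0728).

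CYP71B34 read 6.55, 6.27 and 6.62 with CHX, against 7.63, 7.45 and 7.26 with mock, and fell by 0.96 (SE 0.14, adjusted p = 0.000105). With DEX+CHX it read 6.64, 6.76 and 6.99, against 7.37, 7.02 and 7.06 with DEX. This difference of -0.35 missed the threshold (adjusted p = 0.0572). It passed narrowly without CHX replicate 2 and, with adjusted p = 0.0308, without DEX+CHX replicate 3. Quantile normalization over the genes tested (0.022) and centring on their median (0.015) also gave a call. So did removing the dimmest 30% of genes (0.0385) and the fit with trended and robust variance (0.0422), so the missing call is not firm. CYP71B28 fell by 0.76 (SE 0.20, adjusted p = 0.00552) and by 0.81 (adjusted p = 0.00359), while CYP71B29, the next gene on the chromosome, was not called (-0.19 and 0.19). CYP71B37 fell by 0.61 against mock (adjusted p = 0.0153), a call lost without CHX replicate 2 (0.069), and stood at -0.34 with DEX+CHX against DEX (adjusted p = 0.146), where it was called without DEX+CHX replicate 2 (0.0495). CYP71B5 rose by 1.24 ± 0.24 with DEX+CHX against DEX (adjusted p = 0.000705), where it read 3.06, 3.70 and 3.74 against 2.12, 2.13 and 2.52. Its rise over mock, 0.62 (adjusted p = 0.0435), was a weak call that ended without mock replicate 1 or 2, DEX replicate 1 or 2, or CHX replicate 1 or 3 (adjusted p from 0.0517 to 0.181).

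**Figure D3:**
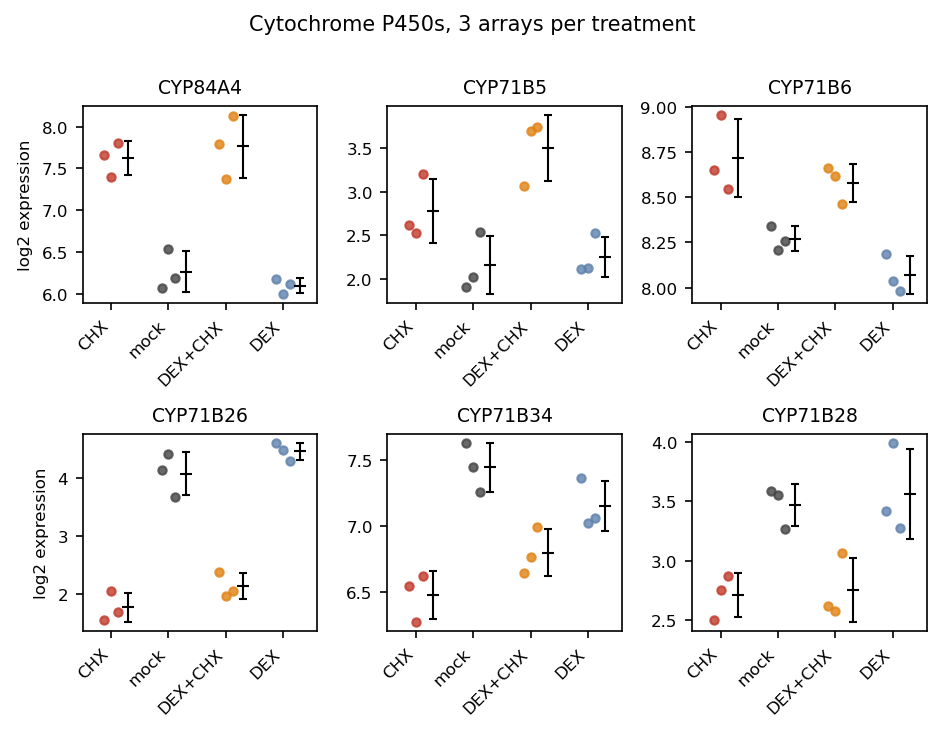
Log2 expression (vertical axis, a range of its own in each panel) of 6 P450 genes on each array, by treatment (horizontal axis: CHX, mock, DEX+CHX, DEX), with the mean and SD of 3 arrays beside the points. CYP84A4 and CYP71B6 are higher and CYP71B26 is lower on every array with CHX, and CYP71B34 differs more between CHX and mock (-0.96) than between DEX+CHX and DEX (-0.35).

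The other P450 calls were weak. CYP71B16 stood at 0.60 over mock (adjusted p = 0.0122), lost without mock replicate 2 or CHX replicate 2 (0.0531 and 0.058). CYP71B22 stood at 0.80 (adjusted p = 0.0405), lost without mock replicate 1 or 3, CHX replicate 2 or 3, or DEX+CHX replicate 2 (0.0521 to 0.166). CYP71B24, the dimmest of the genes, stood at -0.40 (adjusted p = 0.0435), lost without mock replicate 2 or 3, CHX replicate 1 or 3, or DEX+CHX replicate 1 or 3 (0.0536 to 0.164). With DEX+CHX against DEX, CYP71B21 stood at 0.77 (adjusted p = 0.0482) and lost its call when any array but DEX replicate 1 or DEX+CHX replicate 2 was left out (0.0514 to 0.192). CYP71B35 stood at 0.57 (adjusted p = 0.0456) and lost it without DEX replicate 1 or 3, CHX replicate 1 or 3, mock replicate 3 or any DEX+CHX replicate (0.0506 to 0.183), while over mock it was called without mock replicate 1 or CHX replicate 2 (0.0333 and 0.0399). In each of these genes the groups overlapped or lay close together.

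With DEX+CHX against DEX, 10 of the 37 genes rose and 9 fell, so that 51.4% were called, beside 55.8% of all genes, 23.3% of them higher and 32.5% lower. Against mock, CHX raised 11 and lowered 11, or 59.5% of the 37 genes. Pooled over the 37 genes these shares are near those of all genes, but those of the classes lay apart. With DEX+CHX against DEX, 84.6% of the GSTs were called, 4 higher and 7 lower. Of the P450s 33.3% were called, 6 higher and 2 lower. This difference between the classes was not tested. The pair of CHX comparisons rests on different arrays, though 1 spread per gene, estimated over all 12 arrays, served both. Rises shared by both comparisons numbered 8, which is 72.7% of the 11 and 80% of the 10, beside 87.5% and 90.7% for the rises of all genes. Falls shared by both numbered 8, 72.7% of the 11 and 88.9% of the 9, beside 89.5% and 84.7% for the falls of all genes, and none of the 37 genes was called in opposite directions. For the GSTs the shared rises were 4, of 5 over mock and 4 over DEX, and the shared falls 6, of 6 and 7. For the P450s the shared rises were 4, of 6 and 6, and the shared falls 2, of 5 and 2. Of the P450 calls against mock, 66.7% of the rises and 40% of the falls were thus shared. Over the 37 genes the changes of the 2 comparisons correlated at r = 0.96 (Spearman's rho 0.892), beside 0.975 (0.917) over all genes tested, as a description across genes.

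**Figure D4:**
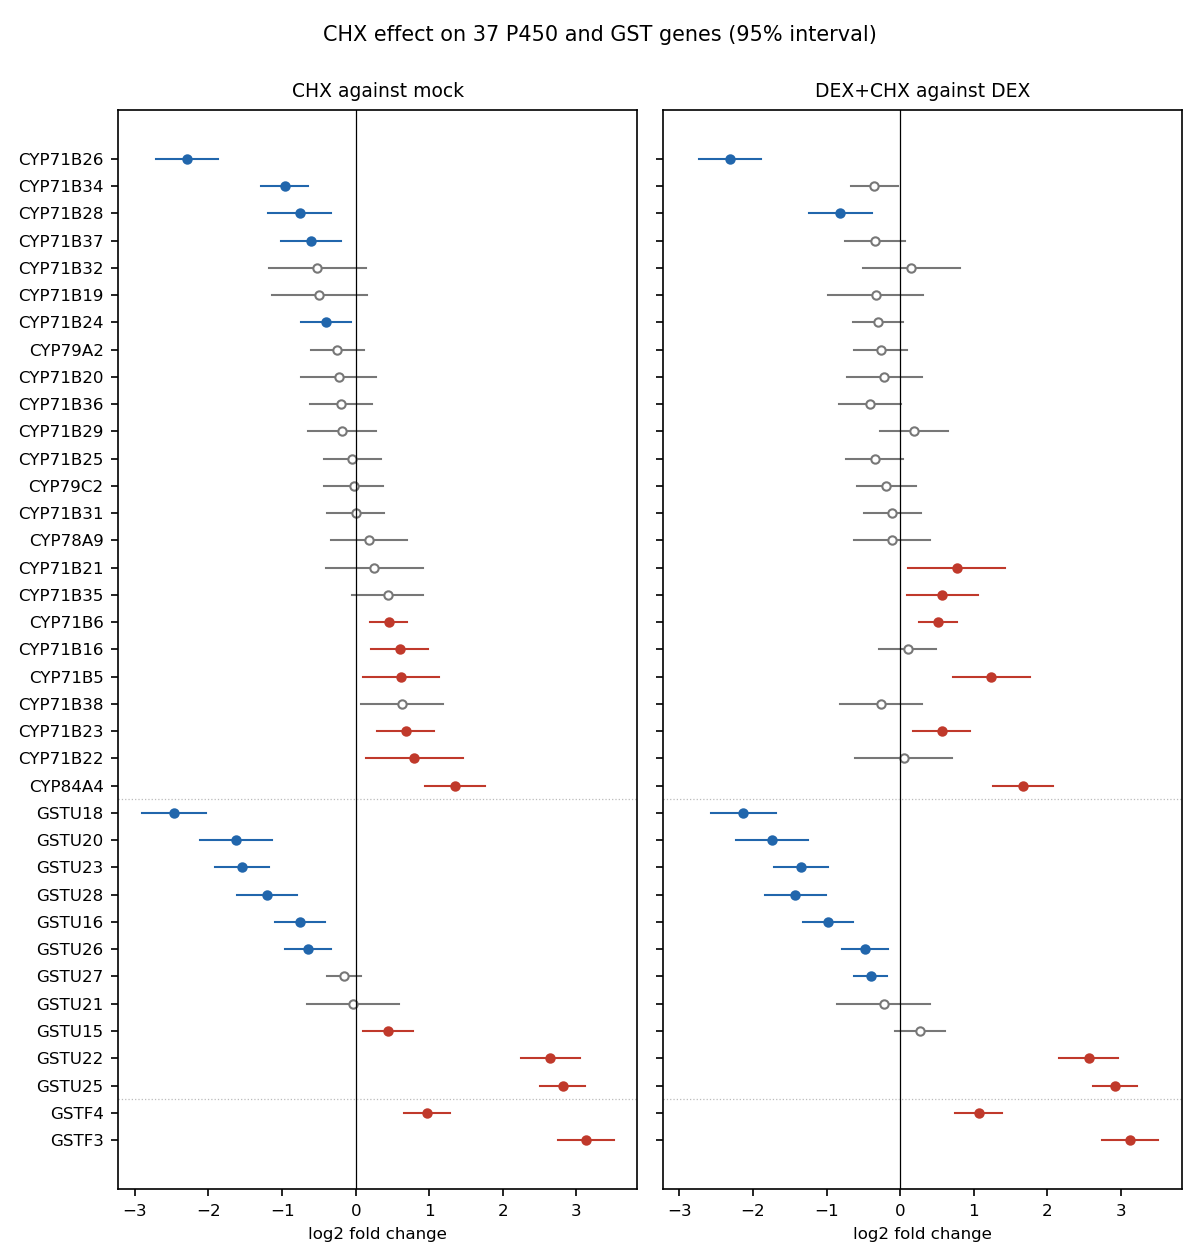
Log2 fold change (horizontal axis) with its 95% interval for each of the 37 genes (vertical axis; P450s above, then tau and phi GSTs), for CHX against mock on the left and DEX+CHX against DEX on the right. Filled red points were called higher, filled blue points lower and open grey points were not called; GSTF3 lies at 3.13 and 3.12 and CYP71B26 at -2.29 and -2.31 in the left and right panels.

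How the arrays are scaled moved the split between rises and falls for CHX. Against mock, the 11 higher and 11 lower genes became 14 and 7 after quantile normalization over all rows, 16 and 6 with each array centred on its median over all rows, 10 and 11 after quantile normalization over the genes tested, and 8 and 12 with arrays centred on their median over those genes. With DEX+CHX against DEX, the 10 higher and 9 lower genes became 12 and 6, 13 and 6, 8 and 12, and 8 and 13 in the same order. The median change of all genes, -0.08 as deposited, was 0.23, 0.37, -0.14 and -0.19 under these scalings for CHX against mock. GSTF3, GSTU25, GSTU22 and CYP84A4 were called higher and GSTU18, GSTU20, GSTU23, GSTU28 and CYP71B26 lower under all 4 scalings, in both comparisons. Centred on all rows, CYP71B24, CYP71B28, CYP71B37, GSTU16 and GSTU26 lost their lower calls against mock (adjusted p = 0.836, 0.167, 0.441, 0.0917 and 0.212), CYP71B24 and CYP71B37 then standing at 0.0386 and -0.17. After quantile normalization over all rows, CYP71B24, CYP71B28, CYP71B37 and GSTU16 lost them (0.184, 0.0752, 0.629 and 0.0727). With DEX+CHX against DEX, CYP71B28, GSTU26 and GSTU27 lost their lower calls when centred on all rows (0.146, 0.981 and 0.577). Quantile normalized over all rows, they lost them too (0.0718, 0.0836 and 0.0996). Scalings over the genes tested removed higher calls. Against mock, centring removed those of GSTU15, CYP71B22 and CYP71B5 (0.0986, 0.0711 and 0.0923) and quantile normalization that of GSTU15 (0.0562). With DEX+CHX against DEX, each removed those of CYP71B21 (0.0827 and 0.104) and CYP71B35 (0.0892 and 0.0817).

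The 12 genes called in neither CHX comparison were CYP71B19, CYP71B20, CYP71B25, CYP71B29, CYP71B31, CYP71B32, CYP71B36, CYP71B38, CYP78A9, CYP79A2, CYP79C2 and GSTU21. Their changes ran from -0.52 for CYP71B32 to 0.62 for CYP71B38 against mock, and from -0.41 for CYP71B36 to 0.19 for CYP71B29 against DEX. Some were called when an array was left out or under another scaling. Without DEX+CHX replicate 1, CYP71B19 was lower with CHX against mock (-0.49, adjusted p = 0.0224) and with DEX+CHX against DEX (-0.76, adjusted p = 0.00415). Without CHX replicate 2, CYP71B38 was higher than with mock (0.95, adjusted p = 0.00208), and without CHX replicate 1, CYP79A2 was lower (-0.42, adjusted p = 0.0356). With DEX+CHX against DEX, CYP71B36 was lower without mock replicate 3 or DEX+CHX replicate 3 (0.0299 and 0.0409) and CYP71B25 without DEX replicate 3 (0.0441). Centred on the median of all rows, CYP71B38 (1.07, 0.00343), CYP78A9 (0.63, 0.0369) and CYP71B31 (0.44, 0.0448) were called higher against mock. CYP71B29 was then called higher with DEX+CHX against DEX (0.66, 0.0144). Centred on the median of the genes tested, CYP71B25 (-0.45, 0.0376) and CYP71B36 (-0.51, 0.0369) were called lower in that comparison. The 12 genes include CYP79A2, which makes the aldoxime precursor of benzylglucosinolate from phenylalanine (-0.25 against mock), its relative CYP79C2 (-0.03) and CYP78A9, whose activity promotes fruit and seed growth (0.18). CYP71B31, known in flowers for acting on the terpene alcohol linalool, stood at 0.00 and read 1.61 to 2.29 over the arrays.

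DEX called none of the 37 genes. Against mock, 0 of 37 passed the adjusted threshold (limma), beside 1.52% of all genes, and 1 had an unadjusted p below 0.05, which is 2.7% beside 10.4% of all genes. With DEX+CHX against CHX, 0 of 37 passed, beside 0.592% of all genes, and 3 had an unadjusted p below 0.05, which is 8.11% beside 5.27%. At these background shares few calls among 37 genes could occur, so the counts of 0 do not set these genes apart. Arrays did not overlap for 3 genes with DEX against mock (15.2% of all genes) and for 2 with DEX+CHX against CHX (9.69%). The median change of the 37 genes was -0.03 without CHX and -0.04 with it, against 0.03 and -0.01 over all genes.

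The intervals show which sizes of DEX effect the arrays leave possible. Without CHX, the 95% interval of the DEX change lay within a 2-fold change in either direction for 34 of the 37 genes, and with CHX for 32. Among the 18 genes brighter than the dimmest 30%, it did so for 16 and 18. For GSTF3, GSTU25, GSTU22 and GSTU18, which changed strongly with CHX, every interval lay within a 2-fold change. GSTF3 stood at -0.24 with DEX against mock (95% interval -0.62 to 0.14), GSTU25 at -0.14 (-0.44 to 0.16), GSTU22 at -0.02 (-0.41 to 0.38) and GSTU18 at -0.12 (-0.55 to 0.32). With CHX present they stood at -0.25 (-0.63 to 0.13), -0.04 (-0.34 to 0.27), -0.10 (-0.50 to 0.29) and 0.22 (-0.21 to 0.66) with DEX. CYP71B26 and GSTU28, also strong CHX responders, had intervals that reached further, though still within a 2-fold change. CYP71B26 stood at 0.38 (-0.04 to 0.80) without CHX and at 0.36 (-0.06 to 0.78) with it. GSTU28 stood at 0.30 (-0.11 to 0.71) without CHX.

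Without CHX, the 3 highest and the 3 lowest DEX changes were all those of CYP71B genes, and none was called. CYP71B genes make up 20 of the 37, and CYP71B38, CYP71B26, CYP71B19 and CYP71B35 lay among the dimmest 30%. CYP71B29 read 7.82, 7.16 and 7.09 with DEX, against 8.08, 8.03 and 7.72 with mock, a difference of -0.58 (95% interval -1.05 to -0.12, adjusted p = 0.308) in which DEX replicate 1 lay inside the mock range. CYP71B21 stood at -0.41 and CYP71B35 at -0.37. CYP71B38 stood at 0.50 (adjusted p = 0.559), where its DEX arrays, at 3.25 to 3.63, lay just above the mock arrays at 2.62 to 3.07. CYP71B26 stood at 0.38 and CYP71B19 at 0.33.

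With CHX present, CYP71B5 read 3.06, 3.70 and 3.74 with DEX+CHX, against 2.62, 2.52 and 3.20 with CHX, a difference of 0.72 (95% interval 0.20 to 1.24, adjusted p = 0.556). CYP71B32 stood at 0.54 and CYP71B19 at 0.49, where DEX+CHX replicate 1 read 3.56 and the other 2 arrays 2.09 and 2.47, inside the CHX range of 1.97 to 2.55. CYP71B19 without that array was not called either. The lowest values were those of GSTU21 (-0.47), CYP71B22 (-0.47) and CYP71B38 (-0.39). GSTU27 stood at -0.26 (adjusted p = 0.816), its DEX+CHX arrays, at 7.33 to 7.53, all lying below its CHX arrays, at 7.62 to 7.77.

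**Figure D5:**
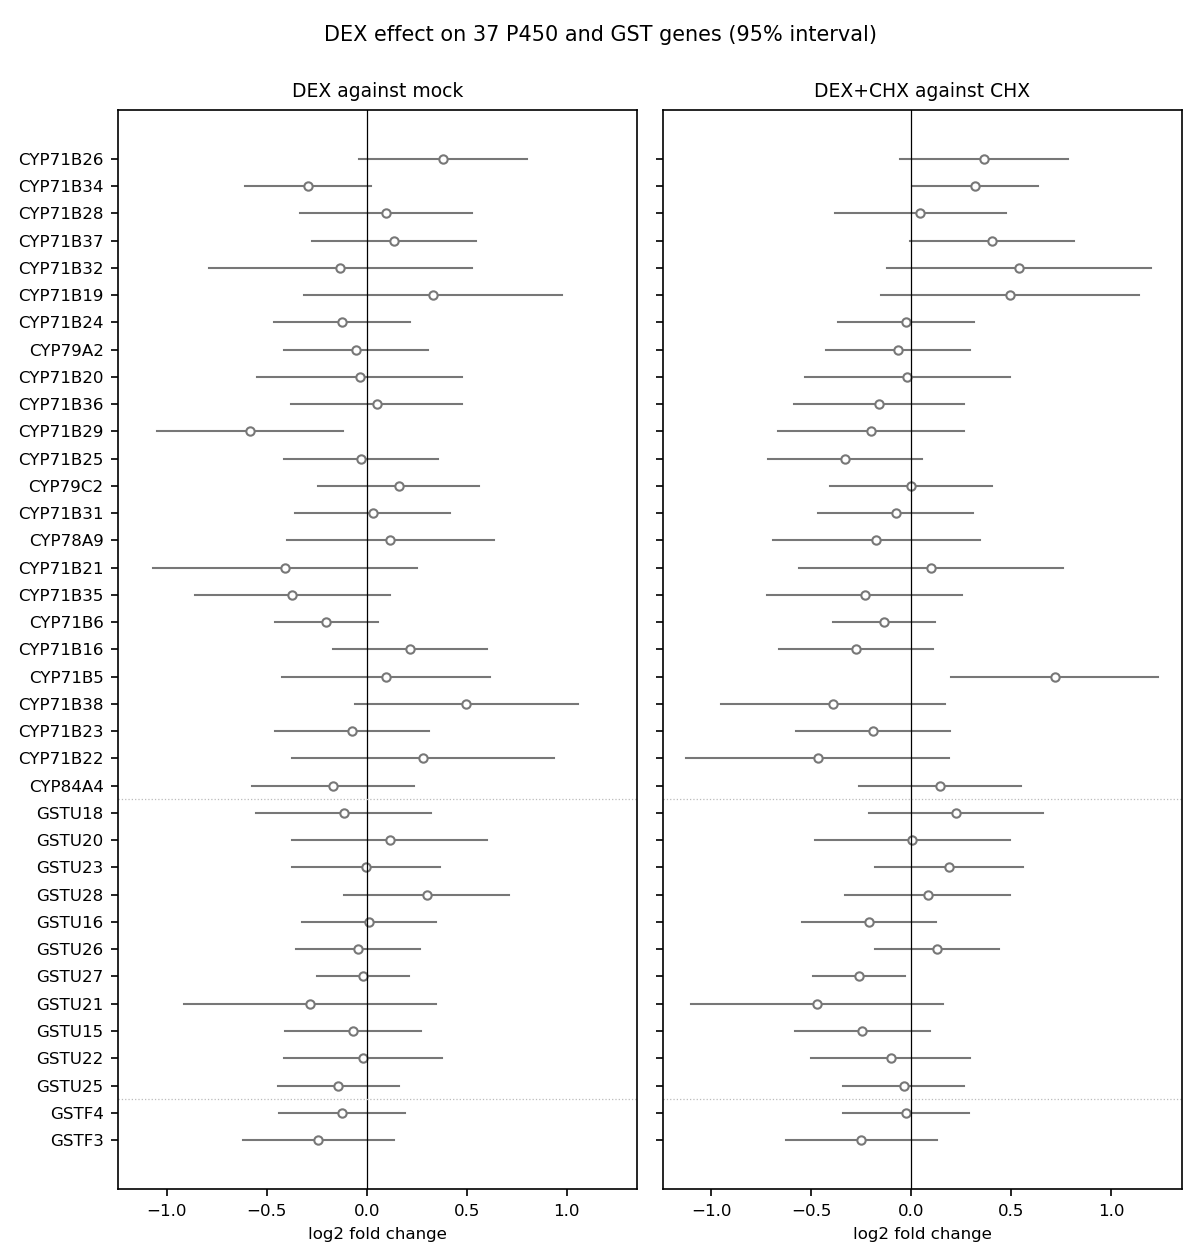
Log2 fold change (horizontal axis) with its 95% interval for each of the 37 genes (vertical axis; the same order as in the plot of CHX effects), for DEX against mock on the left and DEX+CHX against CHX on the right. All points are open and grey because none was called, and the values lie between -0.58 and 0.72.

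The interaction, which tests whether the DEX effect differs with CHX present or, equally, whether the CHX effect differs with DEX, was called for 0 of the 37 genes (limma), beside 0.127% of all genes. Unadjusted p was below 0.05 for 2 of them, which is 5.41% beside 6.18% of all genes. CYP71B34, whose fall with CHX was smaller in roots with DEX, had a difference of 0.61 (adjusted p = 0.531), and CYP71B38 had -0.89, with its DEX change at 0.50 without and -0.39 with CHX. The strong CHX responders showed small differences, -0.01 for GSTF3, 0.10 for GSTU25, -0.08 for GSTU22, 0.34 for GSTU18 and -0.02 for CYP71B26.

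Few other genes of glutathione and P450 metabolism had a row annotated to them alone. Of 13 listed genes of other GST classes 3 were measured, and with CHX against mock 1 rose and 1 fell, beside 54.9% of all genes called. AT1G77290, of the TCHQD class, rose by 1.13 ± 0.11 over mock (adjusted p = 3.25e-06) and by 0.98 over DEX, and GSTL3, a lambda-class GST, fell by 1.14 (SE 0.12, adjusted p = 6.82e-06) and by 1.15. AT1G65820, of the microsomal GST family, stood at -0.23 and -0.23 (adjusted p = 0.0529 and 0.0572). Of 12 genes of glutathione supply and conjugate transport 2 were measured and both fell, beside 30.7% of all genes lower with CHX against mock and 32.5% with DEX+CHX against DEX, so a pair of falls says little about the list. These were the glutathione reductases GR1, which fell by 0.63 (SE 0.09, adjusted p = 4.21e-05) and by 0.55, and AT3G54660, listed as GR, which fell by 0.55 (adjusted p = 0.000178) and by 0.72. Of 9 genes listed as possible electron donors of P450s 1 was measured, the diflavin reductase AT3G02280, at -0.01 and -0.09 with CHX. Whether it serves P450s was not tested. Of 13 regulators and co-induced enzymes of the xenobiotic response 1 was measured, the alkenal reductase AER, at 0.51 over mock (adjusted p = 0.0505) and 0.21 over DEX. None of these 7 genes was called in either DEX comparison.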

How the data were processed

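Root RNA of 12 samples, 3 per treatment, was measured on Affymetrix arrays. The authors deposited log2 expression per probe set, and the submitters' processing notes name Affymetrix Expression Console 1.3. How probes were summarized and normalized, and the genome build, are not stated in these sources, so no coordinates are printed. The log2 scale was read from the range of the values, which were not normalized again.

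Of 38408 rows, 16722 were paired with 1 gene by the platform annotation, 759 with several and 20927 were unnamed. They gave 16550 genes, each read from its brightest row, of which 16411 matched RefSeq (assembly TAIR10.1), all 37 P450 and GST genes among them. The genes and lists were chosen with earlier results of these data known. Named by rule were the called members with the largest changes and no overlap in each CHX comparison (up to 10 per direction), the 5 brightest and 3 dimmest, and the 3 largest uncalled DEX values per direction. The rule also took any member called with DEX, of which there were 0. Other members were named after their values were seen.

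R 4.3.3 and limma 3.58.1 fitted 1 mean per treatment to all 12 arrays (lmFit, eBayes, two-sided), with Benjamini-Hochberg adjustment over the 16550 genes, a threshold of 0.05 and no fold minimum. Folds are antilogs of differences between mean log2 values, ± gives the standard error and intervals are 95%. The fit was tested on simulated data. The number of arrays limits the precision. No label says whether replicates came from separate cultures, so p-values measure the spread between these arrays, which may be technical. No batch label was used.

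Deviations from the group means correlated at 0.244, 0.157 and 0.332 between same-numbered DEX+CHX and CHX arrays, which were read as pairs from the data, and at 0.0533 to 0.227 in the other comparisons. The main fit did not pair arrays. Alternatives covered the scaling, the filter, the rows used, the variance model, the threshold, the replicate block and each array left out.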

Additional observations from a re-analysis of the deposited data

How the results depend on the processing

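The counts of called P450 and GST genes, 22 for CHX against mock, 19 for DEX+CHX against DEX and 0 for both DEX comparisons and the interaction, were recomputed under 26 alternatives, one of which, a fit to just the arrays compared, does not exist for the interaction. The counts of 0 stayed 0 under every alternative run, including the replicate block, the fit with trended and robust variance and each array left out. A fold minimum and a threshold of 0.01 can only remove calls, and counting synonyms added 0 genes. These alternatives could not have changed a count of 0. For CHX against mock a fold minimum of 2 left 9 genes and removing the dimmest 30% of genes, and with them 19 of these 37, left 14. For DEX+CHX against DEX a fold minimum of 2 left 11. Leaving out single arrays gave 18 to 22 and 17 to 20. With the replicate block the counts were 22 and 18. The same-numbered arrays were read as pairs for DEX+CHX against CHX, where the block changed no call. For DEX+CHX against DEX the call of CYP71B35 was lost with the block (adjusted p = 0.0723), and for CHX against mock that of CYP71B24 (0.0523), while CYP71B32 gained one (-0.52, 0.00449). Centring on the median of all rows turned the sign of CYP71B24 against mock (0.0386) and of GSTU27 with DEX+CHX against DEX (0.0695), neither then called, and called GSTU27 (0.28) and CYP71B31 (0.44) higher against mock. The lower median of all rows with CHX builds this shift into that alternative. Low signal limits the 19 dim genes most. Replicate SDs over the 37 genes were 0.026 to 0.765 on the log2 scale, with a median of 0.22.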
